A study of Mus musculus with 8 samples.

Results

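The genes described here are 43 innate sensing genes, named by a list of symbols: the Toll-like receptors, the proteins that present lipopolysaccharide (LPS) to them, their adaptors and kinases, the NF-kB factors with their kinases and inhibitors, the NLRP3 inflammasome, cytokines with their receptors, and the co-stimulatory receptors Cd86 and Cd40. They were taken by symbol alone from a table of 21532 genes measured by RNA-Seq in mouse liver. The rule used no measured value, but the genes were chosen with earlier results of these data known. The table held 42 of the 43. Tlr9 was not analysed here. All 42 reached the mean normalized count of 10 that was asked of a tested gene, together with 15989 genes in all, so that none was lost to the filter. All mice were male db/db mice, a model of obesity and diabetes in which the leptin receptor does not work. Of the 8, 4 received the control and 4 received AF1 peptide, a synthetic peptide taken from the estrogen receptor ERα and joined to a FITC-labelled TAT sequence that carries it into cells. Either was given at 5 mg/kg body weight by retro-orbital injection, 2 times per week over 5 weeks, and the mice were 8 weeks old at the start. Both groups were db/db, so the comparison asks what AF1 peptide did to these genes in diabetic liver and holds no lean mice. Frozen liver gave 1 library per mouse.

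Toll-like receptors recognize molecules of microbes and of damaged cells. TLR4, with CD14 and MD-2, recognizes LPS, which reaches the liver from the gut in portal blood, and TLR2 with TLR1 or TLR6 recognizes bacterial lipopeptides. Their adaptors MyD88, by way of IRAK kinases, and TRIF signal through TRAF6 to the IKK complex. IKK marks the IκB inhibitors for degradation, so that NF-kB enters the nucleus and turns on genes such as Tnf, Il1b and Nfkbia itself. NLRP3 with ASC and caspase-1 forms an inflammasome that cuts the precursors of IL-1β and IL-18. In liver, Kupffer cells, the resident macrophages, carry many of the receptors, while hepatocytes make LPS binding protein. In obesity these pathways are known for their link to steatohepatitis and insulin resistance.

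Several of these genes are themselves known targets of NF-kB, and some of their start regions hold letters of the kind that NF-kB binds. The letters GGGANNTTCC and GGGANNNCCC, both forms of the κB motif, were searched on both strands, with overlapping matches allowed, in the 300 bases around each annotated start (250 before and 50 after, RefSeq, GRCm38.p6). Of the 43 genes, 33 had such a window, and 7 of these (21.2%) held either word, against 7.84% of the 27025 genes with a window. They were Irak1, Nfkb2, Nfkbia, Nlrp3, Tlr2, Tlr3 and Tnfaip3. Counted by window, since a gene can have several, it was 10 of 47 (21.3%), against 6.95% of all 32851 windows. The windows of the known targets Tnf, Il1b and Nfkbie held neither word. Stretches of 4 of them are given 5′ to 3′ on the gene's own strand, with 1 match in each in capitals, because they are an inhibitor (Nfkbia), a factor (Nfkb2), a brake (Tnfaip3) and a receptor (Tlr2) whose expression is described further on.
Nfkbia (chr12:55492648-55492711, - strand): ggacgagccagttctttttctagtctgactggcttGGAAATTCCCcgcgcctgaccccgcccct
Nfkb2 (chr19:46304663-46304736, + strand): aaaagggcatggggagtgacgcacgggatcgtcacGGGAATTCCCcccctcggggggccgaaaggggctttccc
Tnfaip3 (chr10:19015491-19015570, - strand): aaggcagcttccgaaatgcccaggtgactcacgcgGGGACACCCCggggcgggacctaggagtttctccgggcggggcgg
Tlr2 (chr3:83841736-83841815, - strand): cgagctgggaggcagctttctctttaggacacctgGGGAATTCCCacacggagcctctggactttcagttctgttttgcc
The word in Nfkbia ended 20 bases before the start site, that in Nfkb2 30 bases, that in Tnfaip3 116 bases and that in Tlr2 163 bases before it. That of Nfkbia matched on the complementary strand, and the stretch of Nfkb2 holds another match, left in lower case, in its last 10 bases. A match is a description of these letters and does not show that NF-kB was bound there, and no binding was measured in these livers.

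The depth was 35260283 to 45117528 reads per mouse in control and 23031880 to 43978158 with AF1 peptide, recovered as whole reads from the deposited normalized counts. AF1 peptide replicate 1 stood apart from the other mice. Reads of 13 mitochondrial genes made up 20.8% of its total, against 22.4 to 34.3% in control mice and 34.3 to 37.8% in AF1 peptide replicates 2 to 4. It was the lowest of the 8 mice in 23.4% and the highest in 25.9% of all tested genes. Hepatocyte markers were abundant in every library, with summed normalized counts of 2442033 to 2558779.8 in control mice, 1755472 in AF1 peptide replicate 1 and 2088392 to 2539684 in AF1 peptide replicates 2 to 4. Markers of Kupffer cells and macrophages (16 genes) summed to 9643 to 12292 in control mice, 10539 to 11699 in AF1 peptide replicates 2 to 4 and 4322 in AF1 peptide replicate 1, and this mouse was the lowest of the 8 in 15 of the 16. Whole liver was sequenced, so fewer cells of a type and less RNA per cell cannot be told apart. Most results that rest on this mouse are therefore given with and without it.

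Of the 42 genes, 1 was lower and 0 were higher in AF1 peptide-treated than in control liver at an unadjusted p value under 0.05 with more than 1.3-fold change, the rule by which a gene is called here. The gene was Cd86, a co-stimulatory receptor of antigen-presenting cells. It made up 2.38% of the 42 genes. Of all tested genes, 1.9% were called lower and 1.79% higher, so that the share among the 42 was near the background. Without the fold threshold the count was the same, 1 lower and 0 higher, against 3.03% lower and 3.16% higher of all tested genes. Irak1 was the only one of the 42 in which no control mouse overlapped the AF1 peptide-treated mice, and it was higher with AF1 peptide. Of all tested genes, 2.05% did not overlap with AF1 peptide higher and 1.85% with AF1 peptide lower. The log2 fold change, AF1 peptide over control, was above 0 in 18 genes and below 0 in 24, with a median of -0.036, against -0.0083 over all tested genes. It is taken on the log2(normalized count + 1) scale, where the added 1 shrinks the change of genes with low counts. As a mean of logs it also gives a single very low mouse more weight than a mean of counts does. For Tlr4 it was -0.069, while the mean normalized count was 46.3 in control and 48.6 with AF1 peptide. Without AF1 peptide replicate 1 the log2 fold change was above 0 in 25 genes and below 0 in 17, with a median of 0.031. The median of the 42 was 0.0081 in edgeR and 0.012 in DESeq2. With libraries scaled to equal totals, which moved the median of all tested genes to -0.099, that of the 42 was -0.13, and Tlr2 was called lower beside Cd86, while 122 of all tested genes were called higher and 602 lower, in place of 286 and 304. After Benjamini-Hochberg adjustment none of the 42 (0 genes) was under 0.05 in limma, edgeR or DESeq2, and their smallest adjusted p value was 0.763 in limma, 0.751 in edgeR and 0.675 in DESeq2.

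**Figure D1:**
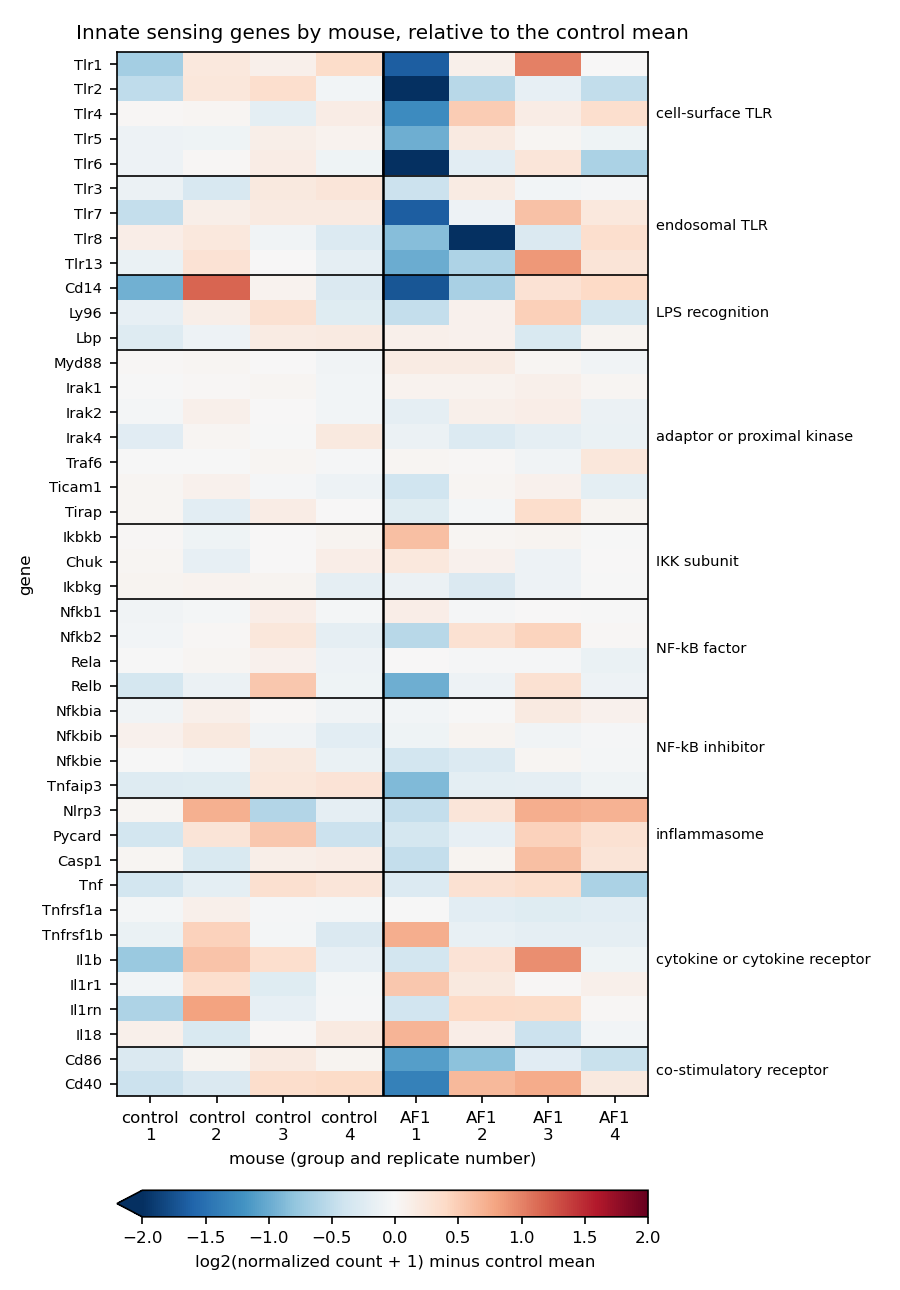
Each cell shows how far 1 mouse lay from the mean of the 4 control mice, as log2(normalized count + 1), for the 42 genes (rows, by role) and 8 mice (columns, 4 control and 4 AF1 peptide), with the colour scale ending at -2 and 2. AF1 peptide replicate 1 was the lowest of the 8 mice in 20 genes, 8 of them Toll-like receptors, while the rows of adaptors, of Rela and Nfkb1 and of Nfkbia are pale in every mouse.

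**Figure D2:**
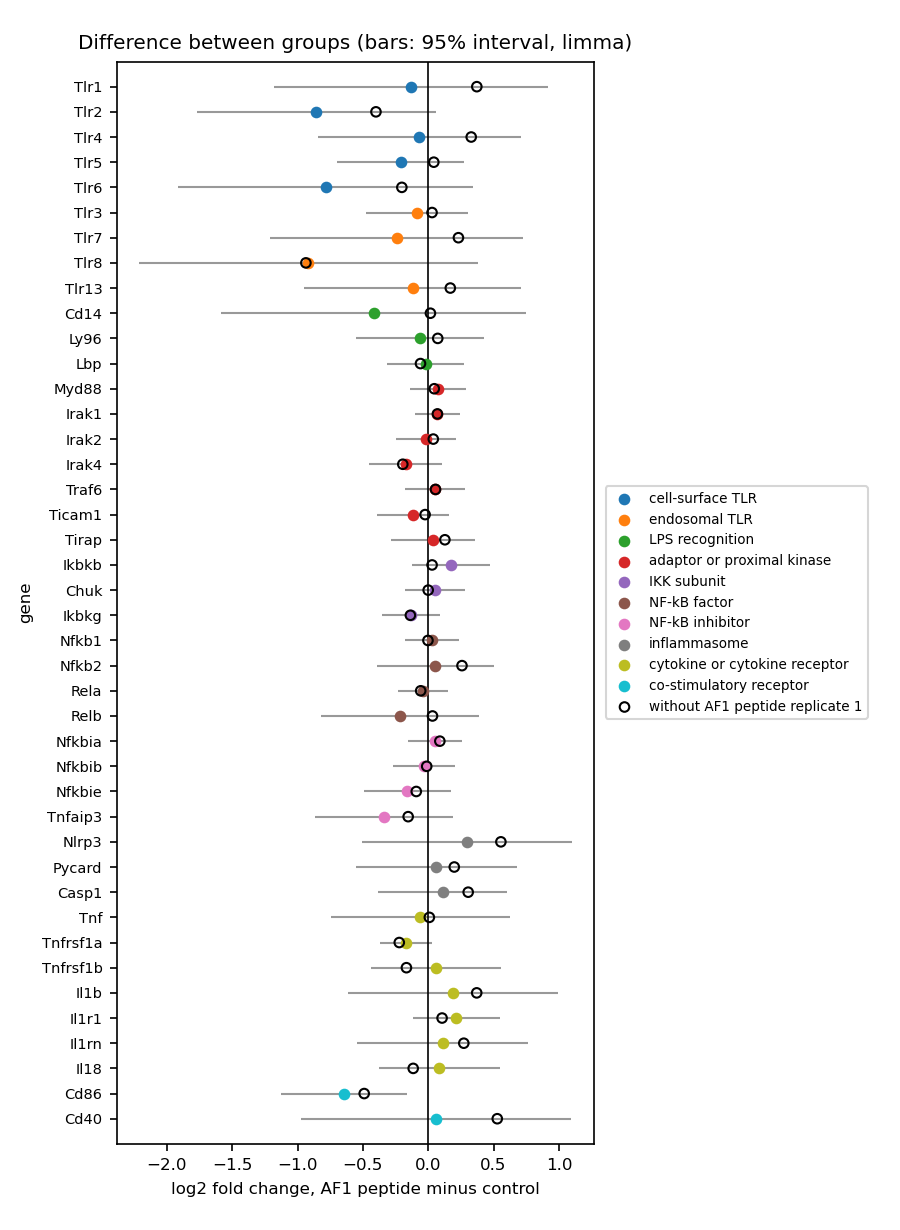
Points give the log2 fold change (AF1 peptide over control) of each of the 42 genes with its 95% confidence interval from limma, and open marks give the value without AF1 peptide replicate 1. The interval of Cd86 is the only one that leaves out 0, and intervals are wide for receptors such as Tlr8 and narrow for signalling genes such as Irak1.

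The cell-surface receptors were Tlr1, Tlr2, Tlr4, Tlr5 and Tlr6, and none of the 5 was called. Tlr2, the lipopeptide receptor, had normalized counts of 45.3, 75.8, 82.2 and 62.0 in control replicates 1 to 4 and 13.1, 43.8, 57.7 and 45.9 in AF1 peptide replicates 1 to 4. AF1 peptide replicates 1 and 2 were below all 4 control mice, replicate 4 was just above the lowest control mouse, and replicate 3 lay among the controls. The means were 66.3 ± 16.3 and 40.1 ± 19.0 (SD, n = 4 each). The log2 fold change was -0.86 with a 95% interval of -1.77 to 0.056, and it did not pass the test (limma, unadjusted p = 0.0631, Benjamini-Hochberg adjusted p = 0.763). It was -0.40 without AF1 peptide replicate 1 (limma, unadjusted p = 0.111). The difference passed the unadjusted threshold in limma without control replicate 1 (log2 fold change -1.02), without AF1 peptide replicate 3 (-1.09), and with libraries scaled to equal totals.

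Tlr4, the LPS receptor, had normalized counts of 47.0, 47.3, 40.0 and 51.1 in control replicates 1 to 4 and 18.7, 65.8, 51.1 and 58.8 in AF1 peptide replicates 1 to 4. AF1 peptide replicate 1 was the lowest of the 8 mice and the other AF1 peptide-treated mice were near or above the highest control mouse, and the means were nearly equal, at 46.3 ± 4.62 and 48.6 ± 20.8. The log2 fold change was -0.069 with all mice, with an interval of -0.85 to 0.71, and 0.33 without AF1 peptide replicate 1. Tlr6, a partner of TLR2, had 29.7, 32.5, 35.7 and 30.1 in control and 4.67, 27.4, 37.9 and 20.2 in AF1 peptide replicates 1 to 4. Its log2 fold change went from -0.79 to -0.20 without AF1 peptide replicate 1, and the interval with all mice was -1.91 to 0.34. In Tlr6, AF1 peptide replicates 1, 2 and 4 were below every control mouse and AF1 peptide replicate 3 was above them all. Without AF1 peptide replicate 3 its log2 fold change was -1.13 and passed the unadjusted threshold (limma, unadjusted p = 0.0481). Tlr1, another partner of TLR2, ranged from 59.3 to 123 in control mice and from 29.9 to 192 with AF1 peptide, with a log2 fold change of -0.13 with all mice and 0.37 without AF1 peptide replicate 1. Tlr1 and Tlr6 are uncertain as separate genes, because 15.4% and 12.3% of their 50-base words also occur in other genes, mainly in each other. Tlr5, the flagellin receptor, ranged from 458 to 533 in control mice and from 249 to 555 with AF1 peptide, with AF1 peptide replicate 1 lowest and a log2 fold change of -0.21 with that mouse and 0.042 without it.

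The endosomal receptors sense nucleic acids, and none of the 4 measured was called. Tlr8 had normalized counts of 21.4, 22.6, 18.4 and 15.9 in control replicates 1 to 4 and 10.3, 1.83, 15.7 and 24.8 in AF1 peptide replicates 1 to 4. The value of AF1 peptide replicate 2 stood for 1 read, the mouse with the fewest reads, and AF1 peptide replicate 4 was the highest of the 8 mice. With so few reads the log2 fold change of -0.92 had an interval of -2.22 to 0.38 and did not pass the test (limma, unadjusted p = 0.148, Benjamini-Hochberg adjusted p = 0.779). Without AF1 peptide replicate 2, the mouse with 1 read, the log2 fold change of Tlr8 was -0.27, and without AF1 peptide replicate 4 it was -1.33 and passed the unadjusted threshold (limma, unadjusted p = 0.0418). Tlr7, a receptor of single-stranded RNA, had 22.2, 34.5, 35.7 and 36.0 in control and 9.33, 29.2, 47.8 and 36.7 in AF1 peptide replicates 1 to 4. The lowest mouse of each group was its replicate 1, and the log2 fold change was -0.24 with all mice and 0.23 without AF1 peptide replicate 1. Tlr3, a receptor of double-stranded RNA, ranged from 126 to 188 in control mice and from 117 to 177 with AF1 peptide. Its log2 fold change was -0.087 (95% interval -0.48 to 0.31, given in parentheses from here on), and 0.029 without AF1 peptide replicate 1. Tlr13, which recognizes bacterial ribosomal RNA in mice, ranged from 30.1 to 42.3 in control mice and from 16.8 to 63.4 with AF1 peptide, with a log2 fold change of -0.12 that was 0.17 without AF1 peptide replicate 1.

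Across the 9 Toll-like receptors the median log2 fold change was -0.21, and all 9 values were below 0 in limma, though edgeR and DESeq2 gave Tlr1, Tlr4 and Tlr13 values above 0, and 3 of 9 were below 0 with a median of 0.042 without AF1 peptide replicate 1. This mouse was the lowest of the 8 in 8 of the 9, against 23.4% of all tested genes. In the median receptor it lay at -1.26 from the control mean on the log2 scale, while AF1 peptide replicates 2, 3 and 4 lay at -0.11, 0.14 and 0.015. Kupffer cell and macrophage markers were lowest in the same mouse, and their part in the receptor values was not tested.

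LPS is handed to TLR4 by LPS binding protein, CD14 and MD-2 (Ly96), and none of the 3 genes was called. Cd14 varied more between control mice than between the groups, with 30.5, 137, 63.8 and 49.4 in control replicates 1 to 4 and 17.7, 38.4, 74.1 and 79.9 in AF1 peptide replicates 1 to 4. Its highest mouse was control replicate 2 and its lowest AF1 peptide replicate 1, and means of 70.1 ± 46.5 and 52.5 ± 29.6 gave a log2 fold change of -0.42 (-1.58 to 0.75), which was 0.017 without AF1 peptide replicate 1. Ly96 had 133, 162, 185 and 126 in control and 107, 159, 209 and 117 in AF1 peptide replicates 1 to 4. The control mice lay within the range of the AF1 peptide-treated mice, and the log2 fold change was -0.064 (-0.56 to 0.43). Without AF1 peptide replicate 1 that of Ly96 was 0.073. Lbp, the secreted protein made by hepatocytes, ranged from 1209.7 to 1637 in control mice and from 1166 to 1539.7 with AF1 peptide, with a log2 fold change of -0.021 and an interval of -0.31 to 0.27.

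The adaptors and proximal kinases were close to equal between the groups, and none of the 7 was called. Myd88, the adaptor of most Toll-like receptors, had 479.6, 486, 477 and 449 in control replicates 1 to 4 and 527, 531, 485 and 451 in AF1 peptide replicates 1 to 4. The means of 473 ± 16.5 and 499 ± 38.1 (SD, n = 4 each) gave a log2 fold change of 0.074 with an interval of -0.14 to 0.29. Irak1, a kinase that MyD88 recruits, had 1530.3, 1564, 1572 and 1479.8 in control and 1613, 1616, 1649 and 1573 in AF1 peptide replicates 1 to 4, so that every AF1 peptide-treated mouse was above every control mouse, the closest pair being control replicate 3 and AF1 peptide replicate 4. The difference was small, with means of 1536 ± 41.8 and 1613 ± 31.2 and a log2 fold change of 0.070 (-0.10 to 0.24), and it did not pass the test (limma, unadjusted p = 0.388, Benjamini-Hochberg adjusted p = 0.855). With libraries scaled to equal totals the log2 fold change of Irak1 was -0.021.

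Irak4, the kinase upstream of IRAK1, had 166, 201, 193 and 223 in control and 180.1, 161, 172 and 177 in AF1 peptide replicates 1 to 4. Control replicate 1 lay among the AF1 peptide-treated mice and the other 3 control mice lay above them, with a log2 fold change of -0.17 (-0.45 to 0.10). Ticam1, which encodes TRIF, the adaptor of TLR3 and in part of TLR4, had 446, 463, 425 and 404 in control and 328, 446, 458 and 380.2 in AF1 peptide replicates 1 to 4. Once more AF1 peptide replicate 1 was the lowest, and the groups overlapped. The log2 fold change of Ticam1 was -0.12 with all mice and -0.024 without that mouse. Irak2, Traf6, the ubiquitin ligase on which these signals meet, and Tirap, the bridging adaptor of TLR2 and TLR4, had log2 fold changes of -0.015, 0.051 and 0.037, with normalized counts from 548 to 678, from 279 to 344 and from 202 to 304 over the 8 mice.

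The IKK subunits and the NF-kB factors carry the signal into the nucleus, and none of the 7 genes was called. Ikbkg, the regulatory subunit NEMO, had 2260.4, 2272, 2259 and 1914 in control replicates 1 to 4 and 2011, 1772, 2016 and 2155 in AF1 peptide replicates 1 to 4. Control replicate 4 lay among the AF1 peptide-treated mice, below the other 3 controls, which were above all AF1 peptide-treated mice. Ikbkg thus had a log2 fold change of -0.13 (-0.35 to 0.090). Ikbkb, the kinase IKKβ, had 1404, 1301, 1379 and 1432 in control and 2101, 1416, 1436 and 1369 in AF1 peptide replicates 1 to 4. The highest of the 8 mice by far was AF1 peptide replicate 1, and the log2 fold change of 0.17 was 0.029 without it. Chuk, the kinase IKKα, ranged from 1771 to 2179 in control mice and from 1854 to 2311 with AF1 peptide, with a log2 fold change of 0.054.

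Rela, the p65 subunit that activates transcription, had 1057, 1092, 1129.6 and 995 in control and 1077, 1054, 1053 and 972 in AF1 peptide replicates 1 to 4. The groups overlapped, with a log2 fold change of -0.040 and an interval of -0.23 to 0.15. Nfkb1, its partner p50, had 430.2, 440.2, 495 and 440.5 in control and 492, 446, 456 and 449 in AF1 peptide replicates 1 to 4, and its log2 fold change of 0.030 had an interval of -0.18 to 0.24. Relb, of the non-canonical branch, had 130.2, 154, 242 and 157 in control and 84.0, 155, 204 and 154 in AF1 peptide replicates 1 to 4. Its lowest mouse was AF1 peptide replicate 1 and its highest control replicate 3, and the log2 fold change was -0.22 with all mice and 0.032 without AF1 peptide replicate 1. Nfkb2, the partner of RelB, ranged from 358 to 477 in control mice and from 276 to 557 with AF1 peptide, with a log2 fold change of 0.054, and 0.26 without AF1 peptide replicate 1 (limma, unadjusted p = 0.0811).

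The inhibitors are brakes of NF-kB, and some of them are also its targets, and none of the 4 was called. Nfkbia, which encodes IκBα and holds the κB word printed above, had 791, 890.2, 841 and 787 in control and 797, 826, 933 and 882 in AF1 peptide replicates 1 to 4. The groups overlapped, with means of 827 ± 48.5 and 859 ± 60.2 and a log2 fold change of 0.053 (-0.15 to 0.26). Tnfaip3, the ubiquitin-editing enzyme A20, had 43.7, 44.3, 61.6 and 63.6 in control and 28.0, 45.7, 46.1 and 49.6 in AF1 peptide replicates 1 to 4. The lowest was AF1 peptide replicate 1, and the other AF1 peptide-treated mice lay between the lower and the higher pair of controls, with a log2 fold change of -0.34 (-0.86 to 0.19) and -0.15 without AF1 peptide replicate 1. Nfkbie, which encodes IκBε, had 113, 108, 129.7 and 103 in control and 87.7, 93.1, 116 and 110.2 in AF1 peptide replicates 1 to 4, and the groups overlapped. Its log2 fold change was -0.16 with all mice and -0.092 without AF1 peptide replicate 1. Nfkbib, which encodes IκBβ, ranged from 619 to 821 over the 8 mice, with a log2 fold change of -0.031.

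The 18 genes from the adaptors to the inhibitors had a median log2 fold change of 0.0073, with 9 above and 9 below 0, and of 0.014 without AF1 peptide replicate 1. With libraries scaled to equal totals the median was -0.084. Their spread between mice was small. The median SD on the log2 scale was 0.11 in control and 0.13 in AF1 peptide-treated mice, against 0.22 and 0.93 for the 9 Toll-like receptors, whose value without AF1 peptide replicate 1 was 0.35. Among the 42 genes, 13 had a 95% interval that stayed within 1.3-fold either way, and 11 of these were of the 18. Of the intervals of all 42, 23 stayed within 1.5-fold. Differences of that size or more lie outside these intervals, while for receptors such as Tlr8 changes of several fold lie inside them.

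Among inflammasome genes none of the 3 was called, and all 3 log2 fold changes were above 0. Nlrp3, the sensor, had 20.6, 33.5, 12.97 and 17.6 in control replicates 1 to 4 and 14.0, 23.7, 33.8 and 33.1 in AF1 peptide replicates 1 to 4. The groups overlapped, with means of 21.2 ± 8.79 and 26.1 ± 9.30, and the log2 fold change of 0.30 had an interval of -0.51 to 1.10. Casp1, the protease, had 112, 88.6, 119 and 121 in control and 78.4, 113, 166 and 131 in AF1 peptide replicates 1 to 4. The lowest and the highest of the 8 mice were AF1 peptide replicates 1 and 3, and the log2 fold change was 0.11 with all mice and 0.31 without AF1 peptide replicate 1 (limma, unadjusted p = 0.109). Pycard, the adaptor ASC, ranged from 36.0 to 71.3 over the 8 mice, with a log2 fold change of 0.062, and -0.027 with libraries scaled to equal totals.

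Of the 7 cytokine and cytokine receptor genes none was called. Tnf, the inflammatory cytokine, had 15.7, 17.7, 25.9 and 24.3 in control replicates 1 to 4 and 16.8, 25.6, 26.4 and 12.9 in AF1 peptide replicates 1 to 4. The control mice again lay within the range of the AF1 peptide-treated mice, with means of 20.9 ± 4.98 and 20.4 ± 6.64 (SD, n = 4 each), and the log2 fold change of -0.061 had an interval of -0.75 to 0.62. Il1b, which encodes IL-1β, had 14.8, 38.4, 32.4 and 22.6 in control and 19.6, 31.0, 49.4 and 23.9 in AF1 peptide replicates 1 to 4. The lowest mouse was a control and the highest an AF1 peptide-treated mouse, with a log2 fold change of 0.19 (-0.62 to 0.99). At these low counts a change of up to 1.5-fold in either direction was inside the interval for both cytokines.

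Tnfrsf1a, the main TNF receptor of hepatocytes, had 2350.2, 2573, 2362 and 2353 in control and 2389.8, 2075, 2037 and 2082 in AF1 peptide replicates 1 to 4. AF1 peptide replicates 2, 3 and 4 were below all control mice and AF1 peptide replicate 1 lay among them. The log2 fold change was -0.17 (-0.37 to 0.030) and did not pass the test with all mice (limma, unadjusted p = 0.0874, Benjamini-Hochberg adjusted p = 0.763). Without AF1 peptide replicate 1 it was -0.22 with an unadjusted limma p of 0.0247, a change of less than 1.3-fold. Il1r1, the IL-1 receptor, had 541, 717, 477 and 550.2 in control and 822, 645, 574 and 607 in AF1 peptide replicates 1 to 4. Control replicate 2 was above 3 of the AF1 peptide-treated mice, and the log2 fold change of 0.21 (-0.12 to 0.55) had an unadjusted limma p of 0.184 with all mice and of 0.0437 without control replicate 2. Without AF1 peptide replicate 1, the highest mouse for Il1r1, the log2 fold change was 0.11 (limma, unadjusted p = 0.446). Tnfrsf1b, the other TNF receptor, ranged from 489 to 818 in control mice and from 525 to 988 with AF1 peptide, and its log2 fold change went from 0.057 to -0.17 without AF1 peptide replicate 1, its highest mouse. Il18, a product of the inflammasome pathway, likewise went from 0.083 to -0.12, with ranges of 361 to 502 in control and 331 to 711 with AF1 peptide. Il1rn, which encodes the IL-1 receptor antagonist, ranged from 54.4 to 148 over the 8 mice, with a log2 fold change of 0.11 (-0.55 to 0.76).

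Cd86, which binds CD28 and CTLA-4 on T cells, had normalized counts of 71.7, 90.6, 99.4 and 90.4 in control replicates 1 to 4 and 40.1, 49.3, 75.0 and 64.3 in AF1 peptide replicates 1 to 4. AF1 peptide replicates 1, 2 and 4 were below every control mouse and AF1 peptide replicate 3 was above control replicate 1 alone. The means were 88.0 ± 11.7 and 57.2 ± 15.5 (SD, n = 4 each). The fold change was 0.640 with a 95% interval of 0.459 to 0.893, a log2 fold change of -0.64 with a standard error of 0.22, which passed the unadjusted threshold and not the adjusted one (limma, unadjusted p = 0.0136, Benjamini-Hochberg adjusted p = 0.763). Without AF1 peptide replicate 1 it was -0.49 (limma, unadjusted p = 0.0279). It ranged from -0.79 to -0.49 with each mouse left out in turn, with unadjusted limma p values from 0.00457 to 0.0407. Cd40, the other co-stimulatory receptor, had 11.5, 12.8, 20.5 and 20.9 in control and 5.60, 25.6, 27.2 and 18.4 in AF1 peptide replicates 1 to 4. Its lowest mouse was AF1 peptide replicate 1 and its 2 highest mice were AF1 peptide replicates 2 and 3, with a log2 fold change of 0.057 (-0.98 to 1.09), and of 0.53 without AF1 peptide replicate 1. Dendritic cells also carry Cd86, and the summed normalized counts of their markers were 353 to 471 in control mice, 356 in AF1 peptide replicate 1 and 444 to 582 in AF1 peptide replicates 2 to 4, while those of B cells were 121 to 162, 55.1 and 92.8 to 219.9. Among the 16 macrophage markers, Adgre1, which encodes F4/80, was itself called lower with a change near that of Cd86, and it was named after its values were seen. Its log2 fold change was -0.66 with all mice and -0.45 without AF1 peptide replicate 1, while that of Cd86 was -0.64 and -0.49. With all mice, 14 of the 16 macrophage markers were below 0 and 2 above, with a median of -0.30. Without AF1 peptide replicate 1, 8 were below and 8 above, with a median of 0.022. Adgre1 no longer passed without control replicate 2 (-0.56), control replicate 4 (-0.54) or AF1 peptide replicate 1. The part of these cells and of macrophages in the value of Cd86 was not tested.

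**Figure D3:**
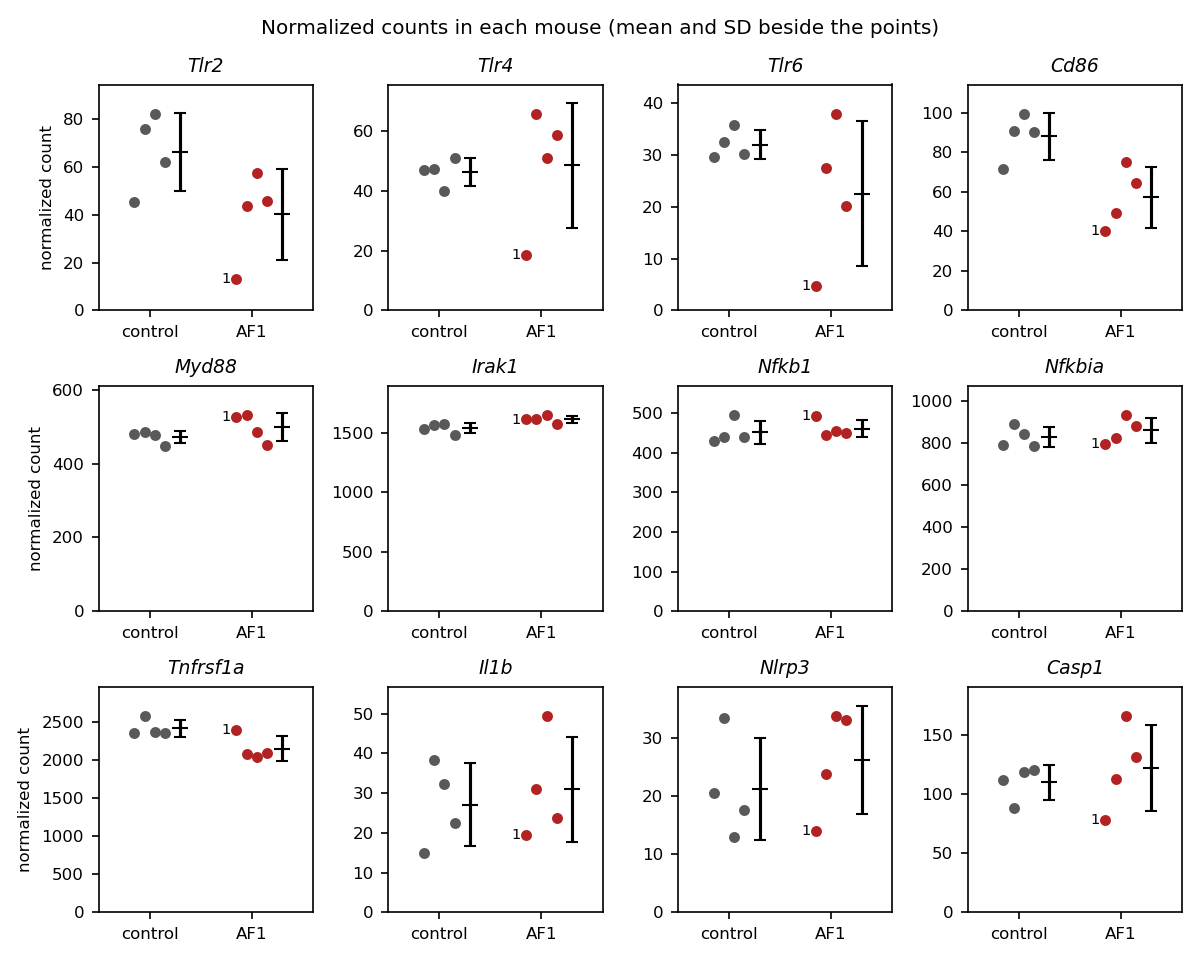
Normalized counts in each mouse (points in replicate order from the left, AF1 peptide replicate 1 marked 1) with the mean and SD beside them, for 4 control and 4 AF1 peptide-treated mice and 12 of the genes. The groups of Irak1 do not overlap, Cd86 is below the lowest control mouse in 3 of 4 AF1 peptide-treated mice, and AF1 peptide replicate 1 is the lowest mouse for Tlr2 and Tlr4.

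To compare levels between genes, normalized counts were divided by the length in kilobases of the longest coding transcript. On this scale the control mean was lowest for Nlrp3, at 5.26 ± 2.19 per kilobase, Cd40 at 5.51 ± 1.67 and Tlr8 at 5.71 ± 0.886, which did not differ beyond their spread. Tlr7, Tlr13 and Tlr6 followed, with 8.24 ± 1.69, 8.52 ± 1.35 and 8.70 ± 0.746. Tlr4, Tnfaip3 and Tnf lay at 11.4 ± 1.13, 12.1 ± 2.44 and 12.8 ± 3.04, again within each other's spread (mean ± SD of 4 control mice). Il1b was at 19.96 ± 7.70, Tlr2 at 22.00 ± 5.42, Tlr1 at 32.7 ± 9.14, Cd86 at 34.7 ± 4.60 and Tlr3 at 36.3 ± 6.69. Tlr5 stood well above the other Toll-like receptors at 129 ± 9.76. The signalling genes spread widely, from Tnfaip3 over Traf6 at 47.7 ± 1.05 and Nfkb1 at 109.7 ± 7.16 to Irak1 at 401 ± 10.9 and, higher still, Nfkbia and Chuk. The 5 highest of the 42 were Il18 at 506 ± 68.8, Nfkbia at 524 ± 30.8, Chuk at 569 ± 48.3, Lbp at 576 ± 83.2 and, above all others, Tnfrsf1a at 1118 ± 50.6 per kilobase. The order is a description of liver tissue as a whole. Exons of 10 of the 42 genes (Tlr3, Myd88, Irak2, Irak4, Tirap, Ikbkg, Nfkb2, Nfkbib, Pycard and Il1b) overlap a gene on the opposite strand in the GENCODE M21 annotation, and since no source used here states whether the counting used strand, reads of either gene cannot be told apart in them.

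**Figure D4:**
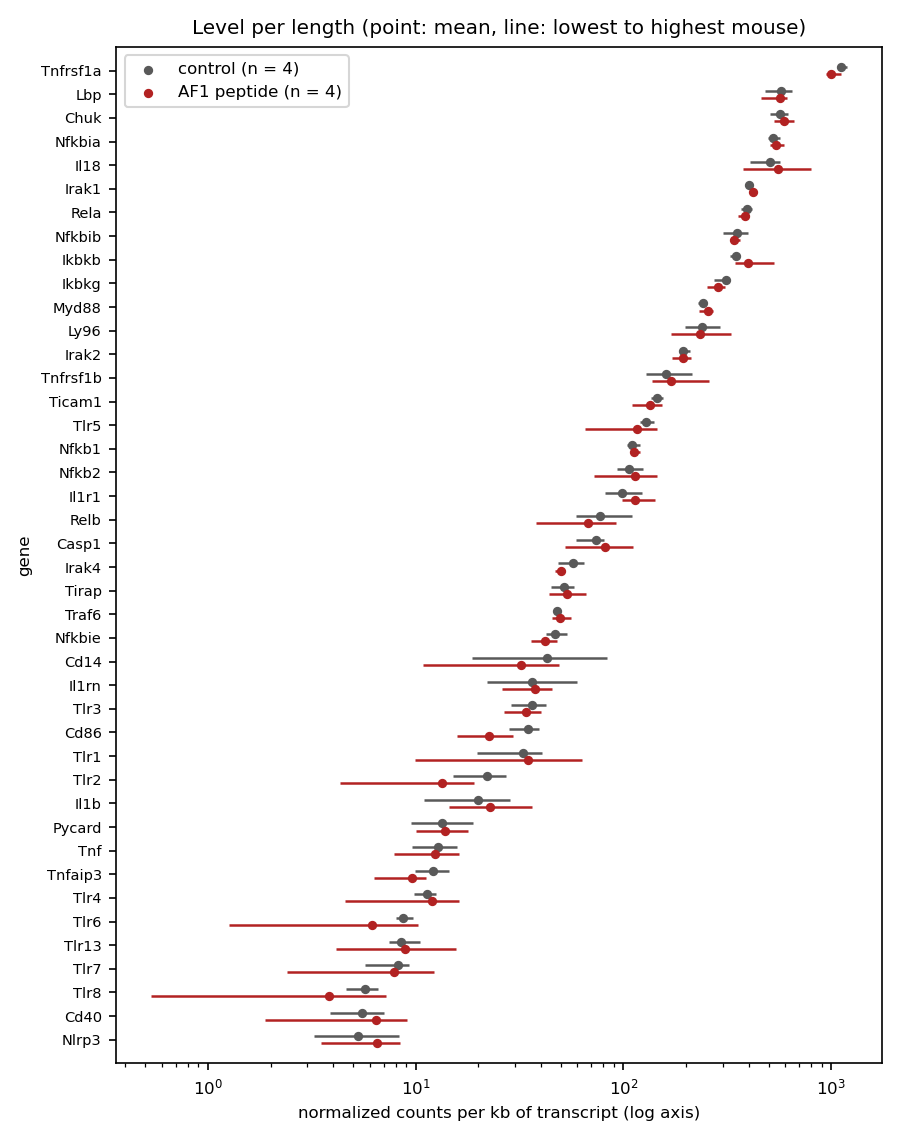
Normalized counts per kilobase of transcript on a log axis for the 42 genes, ordered by the control mean, with a point for the mean and a line from the lowest to the highest mouse of 4 control and 4 AF1 peptide-treated mice. Control means run from 5.26 for Nlrp3 to 1118 for Tnfrsf1a, and every Toll-like receptor except Tlr5 lies below 42.7, the mean of Cd14.

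AF1 peptide replicate 1 was the lowest mouse in 20 of the 42 genes (47.6%) and the highest in 5 (11.9%), against 23.4% and 25.9% of all tested genes. The 5 genes in which it was highest were Ikbkb, Chuk, Tnfrsf1b, Il1r1 and Il18. AF1 peptide replicate 3 was the highest mouse in 15 genes (35.7%) and the lowest in 4, against 15.5% of all tested genes for the highest. Among macrophage markers the Kupffer cell genes Clec4f, Vsig4 and Timd4 had normalized counts of 1091, 167 and 38.3 in AF1 peptide replicate 1, against 1865 to 2506, 378 to 583 and 52.2 to 93.8 in control mice. The median log2 fold change of the 16 macrophage markers was -0.30 with all mice and 0.022 without AF1 peptide replicate 1, the same pattern as in the receptors. Neutrophil markers (9 of 10 in the table) summed to 171 to 249 in control mice, 78.4 in AF1 peptide replicate 1 and 158 to 302 in AF1 peptide replicates 2 to 4. Markers of recruited monocytes and lipid-associated macrophages summed to 13167 to 15359.6, 17782 and 13194 to 14023 in the same order. Fn1, which hepatocytes also make and which was named after its values were seen, carried that sum, with a normalized count of 17308 in AF1 peptide replicate 1, and the median of the 10 genes lay at -1.28 from the control mean in that mouse, near the -1.32 of the 16 macrophage markers, with 8 of the 10 lowest in it. Endothelial markers (8 genes), of cells that also carry innate receptors, summed to 7491 to 8486, 7331 and 7668 to 9506. Their log2 fold changes were below 0 in 6 and above 0 in 2. Of the 8, Stab1 alone had an unadjusted limma p under 0.05 (0.0313), higher with AF1 peptide, and it was not called. It stayed under that p in 4 of the 8 fits with 1 mouse left out. The part of these cells in the receptor, Cd86 and cytokine values was not tested.

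**Figure D5:**
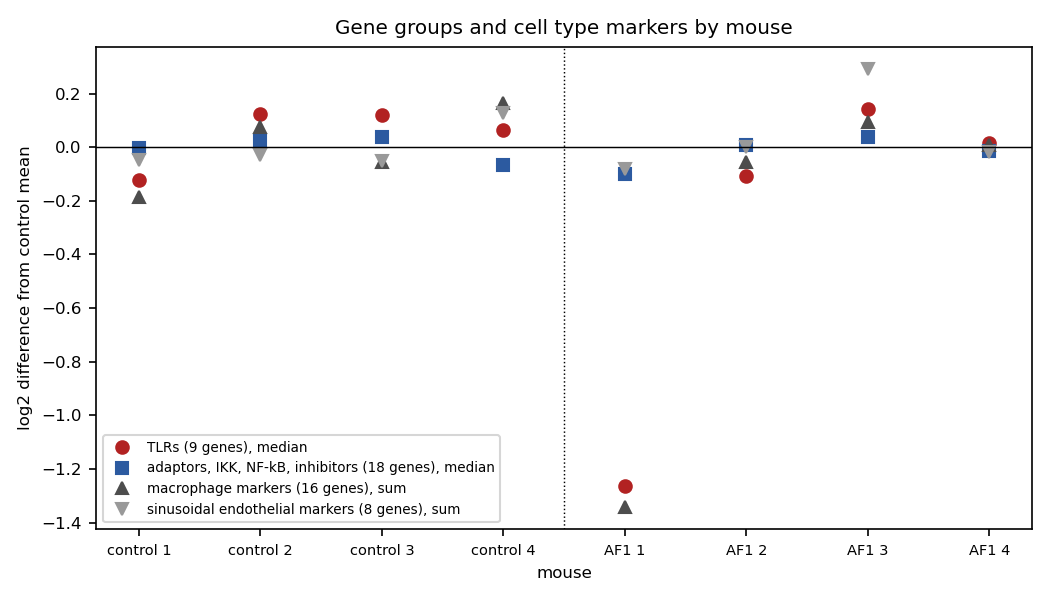
Difference of each mouse from the control mean on the log2 scale, as the median over genes for the Toll-like receptors and the signalling genes (log2(normalized count + 1)) and as the summed normalized counts for 16 macrophage and 8 endothelial markers. In AF1 peptide replicate 1 the 9 Toll-like receptors lie at -1.26 and the 18 signalling genes at -0.10, while in the other 7 mice the medians of both lie within 0.14 of 0.

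Other genes of these pathways were read from 4 lists of 107 genes, of which 105 were in the table and 94 were tested. Their log2 fold changes were above 0 in 38 and below 0 in 56, with a median of -0.029 and 0.025 without AF1 peptide replicate 1. At an unadjusted p value under 0.05, 2 were higher (2.13%) and 3 lower (3.19%), shares near those of all tested genes given above, and with the fold threshold 1 was called higher and 1 lower. None of the 25 other genes of Toll-like receptor signalling and none of the 19 targets of NF-kB reached that p value, and the targets had a median log2 fold change of -0.039. The groups did not overlap in 4 of the 94, a share near that of all tested genes (623 of 15989). They were the 3 named next as such and Tbk1, a kinase downstream of TRIF that was named after its values were seen. Tbk1 was measured at 614, 586, 705 and 615 in control replicates 1 to 4 and 540.3, 537, 566 and 549 in AF1 peptide replicates 1 to 4, with a log2 fold change of -0.20 that did not pass the test. The adjusted p value of each of the 5 genes named next was 0.763 (limma, Benjamini-Hochberg).

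Among the 27 other regulators of NF-kB, Bcl10, the adaptor that links CARD proteins to IKK, was lower, with 353, 389.97, 352 and 334 in control replicates 1 to 4 and 272, 279, 289.97 and 304 in AF1 peptide replicates 1 to 4. Every AF1 peptide-treated mouse was below every control mouse. Its log2 fold change was -0.32 ± 0.10 (SE) and stayed under the p threshold with each mouse left out, and the change was less than 1.3-fold. Birc2, the ubiquitin ligase cIAP1 of TNF receptor signalling, was higher, with 782, 784, 912 and 829.9 in control and 1278, 966, 969 and 916 in AF1 peptide replicates 1 to 4. The groups did not overlap, and the log2 fold change of 0.31 ± 0.12 (SE) no longer passed with libraries scaled to equal totals, nor without control replicate 1 (0.28), control replicate 2 (0.28) or AF1 peptide replicate 1 (0.20). Tnip1, a partner of A20 that restrains NF-kB, was called lower, with 405, 485, 500.5 and 366 in control and 244, 334, 421 and 333 in AF1 peptide replicates 1 to 4. The groups overlapped, and the log2 fold change of -0.41 ± 0.17 (SE) no longer passed without control replicate 2 (-0.36) or 3 (-0.35), or AF1 peptide replicate 1 (-0.27), 2 (-0.42) or 4 (-0.42).

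Among the 23 other inflammasome and IL-1 family genes, Nek7, a kinase that binds NLRP3 in the active inflammasome, was lower, with 709.5, 829, 713 and 674 in control replicates 1 to 4 and 616, 586, 539 and 599 in AF1 peptide replicates 1 to 4. The groups did not overlap, and the log2 fold change of -0.32 ± 0.099 (SE), less than 1.3-fold, stayed under the p threshold with each mouse left out. Nlrp6, an inflammasome sensor best known in the gut, was called higher, with 12883, 9422, 12949 and 11927 in control and 26226, 16274, 16352 and 11172 in AF1 peptide replicates 1 to 4. AF1 peptide replicate 4 lay among the controls, and replicate 1 was the highest of the 8 mice. Its log2 fold change of 0.51 ± 0.23 (SE) did not pass with libraries scaled to equal totals. It passed with all mice and without AF1 peptide replicate 4, and leaving out any of the other 7 mice gave log2 fold changes from 0.30 to 0.56 that did not pass.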

How the data were processed

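Liver RNA-Seq of 8 male db/db mice was analysed, 4 control and 4 AF1 peptide, grouped by the sample labels. The study's methods name TrimGalore 0.6.7, HISAT2 and SAMtools 1.17 for trimming, alignment and sorting and GenomicAlignments for counting per gene, and the submitters' processing notes name the build mm39. The annotation, the strand setting of the counting and the handling of reads with several matches are not given in the sources used here. The authors deposited 1 table of normalized counts, in which each signal is a library's reads of a gene over that library's size factor, and 100% of its values came out as whole reads within a tolerance of 0.1. It covers 21532 genes, and 0 columns of per-sample values were left out.

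The log2(normalized count + 1) of the 15989 genes with a mean of at least 10 was compared with limma 3.58.1 (variance trend, R 4.3.3) over all 8 mice, and p values were adjusted over all tested genes by the Benjamini-Hochberg method. Calls needed more than 1.3-fold change and an unadjusted p value under 0.05, after the p threshold of the study's methods. Alternatives were pseudocounts of 0.5 and 5, no filter, at least 10 in every mouse, the recovered reads in edgeR 4.0.16 and in DESeq2 1.42.0, TMM factors, equal totals, no fold threshold, no variance trend, a separate variance for each gene, a block for the replicate number, and each mouse left out in turn. The limma script was tested on simulated counts. Replicates of a group differed by 15.7 to 353 in chi-square per degree of freedom, so none was a duplicate.

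The genes and all lists were chosen with earlier results of these data known. Values in every mouse are given for those of the 42 genes with an unadjusted p under 0.05 or groups that do not overlap, for the 2 smallest p values of each role, and for Tlr2, Tlr4, Cd14, Myd88, Nfkb1, Rela, Nfkbia, Tnf, Il1b, Nlrp3 and Casp1. Other genes are named only where they passed that p value in a pathway list or are among the first 3 markers of a cell type, except where the text says that a gene was named after its values were seen. Transcript lengths and shared 50-base words came from GENCODE M21 and start regions from RefSeq GRCm38.p6, another build than the authors', so these coordinates belong to that build alone.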

Additional observations from a re-analysis of the deposited data

Results flagged for a closer look

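Among 84 groups of 4 mice (42 genes, control and AF1 peptide), 8 held 1 mouse whose gap to the next took a larger share of the range of the group than Dixon's 95% critical value, where chance gives about 1 in 20, or 4.2. AF1 peptide replicate 1 was that mouse in 3 of the 8, each time as the highest, for genes of IKK and TNF signalling. They were Ikbkb (gap 0.909 of the range, with a normalized count of 2101 against 1436 in the next mouse), Tnfrsf1b (0.967, with 988 against 541) and Tnfrsf1a (0.873, with 2389.8 against 2082). Tnfrsf1a also held a high control mouse, replicate 2 (0.948, with 2573 against 2362). The other 4 were Lbp, low in AF1 peptide replicate 3 (0.878, with 1166 against 1494), Ikbkg, low in control replicate 4 (0.965, with 1914 against 2259), Nfkb1, high in control replicate 3 (0.841, with 495 against 440.5), and Tlr7, low in control replicate 1 (0.888, with 22.2 against 34.5).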

How the results depend on the processing

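Cd86 was lower at an unadjusted p value under 0.05 under every alternative run, and no other of the 42 genes was with all mice in the limma test described above. Of all tested genes, 286 were called higher and 304 lower, against 435 and 459 with no filter, 122 and 602 with equal totals, 506 and 484 with no fold threshold, and 197 lower with each gene's own variance. With 1 mouse left out, 198 to 457 were higher and 173 to 491 lower. Of the 42 genes, 2 were called lower with equal totals (Cd86 and Tlr2), and 2 had an unadjusted p under 0.05. With each gene's own variance, 2 were lower (Cd86 and Tnfrsf1a) and 1 higher (Irak1) at that p. With 1 mouse left out, 1 to 3 were called lower, 1 to 3 were lower and 0 to 1 higher at that p. The deviations of same-numbered mice of the groups had correlations of 0.235, 0.0238, 0.216 and -0.0640. Their mean was 0.103, against -0.034 for mice of different numbers. So few values, not alike among themselves, cannot decide whether the numbers pair the mice. With the replicate number as a block 2 of the 42 were called lower and 2 were lower at that p (Cd86 and Tlr2), and 341 genes were called higher and 392 lower in all. Equal totals turned the log2 fold changes of Myd88 (-0.017), Irak1 (-0.021), Traf6 (-0.040), Tirap (-0.054), Chuk (-0.037), Nfkb1 (-0.061), Nfkb2 (-0.038), Nfkbia (-0.038), Pycard (-0.027), Tnfrsf1b (-0.035), Il18 (-0.0081) and Cd40 (-0.034), a scaling that lowered the median of all genes from -0.0083 to -0.099. edgeR and DESeq2 turned Tlr1 (0.098 and 0.096), Tlr4 (0.044 and 0.051), Tlr13 (0.092 and 0.083), and the cause was not tested. Their mean normalized counts were higher with AF1 peptide than in control (Tlr1 105 against 98.9, Tlr4 48.6 against 46.3, Tlr13 35.9 against 34.6). Leaving out 1 mouse turned 25 genes, none of them called with all mice, with these ranges: Casp1 -0.053 to 0.31, Cd14 -0.74 to 0.017, Cd40 -0.17 to 0.53, Chuk -0.0020 to 0.11, Il18 -0.12 to 0.25, Il1b -0.060 to 0.38, Il1rn -0.097 to 0.38, Irak2 -0.064 to 0.039, Lbp -0.11 to 0.074, Ly96 -0.25 to 0.073, Nfkb1 -0.0023 to 0.075, Nfkb2 -0.078 to 0.26, Nfkbib -0.10 to 0.034, Pycard -0.083 to 0.24, Relb -0.39 to 0.032, Tirap -0.069 to 0.13, Tlr1 -0.51 to 0.37, Tlr13 -0.45 to 0.17, Tlr3 -0.19 to 0.029, Tlr4 -0.26 to 0.33, Tlr5 -0.34 to 0.042, Tlr7 -0.52 to 0.23, Tnf -0.20 to 0.13, Tnfrsf1b -0.17 to 0.21, Traf6 -0.0068 to 0.094. At 10 or more in every mouse 38 of the 42 remained to be tested. Depth limits genes of few reads, such as Tlr8, for which 1 library held 1 read.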

Other observations

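Markers of other cells of the liver were read in the same way, as summed normalized counts in control mice, in AF1 peptide replicate 1 and in AF1 peptide replicates 2 to 4. Hepatic stellate cell markers summed to 4969 to 7069.6, 3812 and 4469 to 8018, and biliary markers to 1193 to 1799, 803 and 1246 to 2291. Of the 8 stellate markers, 5 had log2 fold changes above 0 and 3 below. Dcn alone was called, lower at -0.42 (limma, unadjusted p = 0.0388), and it was named after its values were seen. It stayed under the p threshold in 4 of the 8 fits with 1 mouse left out. Markers of T and NK cells summed to 81.6 to 143, 121 and 99.2 to 130.2. Red blood cell markers ranged widely among control mice, at 34152 to 123402, with 27114 and 49148 to 51930.3 in AF1 peptide-treated mice. Of the 5 adipocyte markers, 2 were in the table, Cidea and Retn, named after their values were seen, and 1 was tested. Their sum was 1454 to 3449.5 in control mice and 1705 to 2207 in AF1 peptide replicates 2 to 4, against 44.8 in AF1 peptide replicate 1. The defining markers Adipoq, Lep and Plin1 were not in the table, so this sum cannot tell whether adipocytes were present. What these differences between single mice mean for the 42 genes was not tested.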
